A study of Arabidopsis thaliana with 48 samples.

Results

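A set of 100 Arabidopsis genes had higher transcript levels on days 2 and 3 of a floral induction time course than at its start and its end. The highest day mean was on day 1 in 12 of them and on day 4 in 1. The line studied was pAP1:AP1-GR ap1 cal in the Col-0 background. It lacks functional AP1 and CAL, forms cauliflower-like inflorescences, and carries a fusion of AP1 with the glucocorticoid receptor under the control of the AP1 promoter, so that dexamethasone moves AP1 into the nucleus. Inflorescences were drenched with 2 µM dexamethasone every day and sampled on days 0, 1, 2, 3, 4 and 5, with 4 biological replicates per day and 24 samples in all. Plants grew at 21 °C with 16 h of light and 8 h of darkness, the first drench came 8 h after the lights went on, and the later ones came 4 h after. The solution also held 0.01% ethanol and the wetting agent Silwet L-77. Every group carries the same transgene and mutations, an untreated time course is not analysed here, and the labels do not say how many plants made up a sample. The day and the number of drenches received therefore cannot be told apart.

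Members were chosen by their measured values, as follows. Levels are CPM, a gene's count divided by the sample's total count and multiplied by 1000000. A gene needed a mean of at least 2 CPM over days 2 and 3, and all 8 samples of those days above both the day 0 mean and the day 5 mean. Of 23069 genes in the table, 925 met this. They were ranked by a score, the log2 ratio of the mean of days 2 and 3 to the higher of the day 0 and day 5 means, with 0.5 CPM added to both, and the 100 highest were kept. All 100 also passed the filter on low counts. The members' levels on days 0, 2, 3 and 5 are thus a description, and calls of the fit on those days are given beside the background and support nothing about the members. The levels on days 1 and 4 were not used and could be tested.

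The samples held 26.56 to 27.98 M counts. The inflorescence markers STM, LFY, AP1, AP3, ANT and PDF1 were detected on every day, with a summed level of 1721 to 3290 CPM, while 9 mature pollen markers summed to 1.96 to 3.13 CPM. The summed level of 12 leaf markers was 12220 to 16190 CPM on day 0 and 5979 to 9486 CPM from day 2 on. The sums of 2 other lists were higher in the middle of the course, as the members were. The 18 vascular markers summed to 607 to 653 CPM on day 0, 662 to 726 CPM on days 2 and 3 and 494 to 640 CPM on day 5. For 24 anther and tapetum genes the sums were 468 to 538, 526 to 635 and 414 to 505 CPM, with overlap between day 0 and days 2 and 3, and 6 of the genes were at 0 in all day 0 samples. The part of these tissues in the members' levels was not tested. On the third principal component, which held 8.3% of the variance of log2 CPM, day 5 replicate 1 lay at 51.65 and day 3 replicate 4 at -43.92, apart from the other samples of their days. Without day 5 replicate 1 the rule returned 74 of the 100 members, and without day 3 replicate 4 it returned 78. It returned 79 without day 5 replicate 3 and 80 without day 3 replicate 2, which did not lie apart on that component.

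By their known roles, a minority of the members fall into 2 kinds. One kind belongs to the response of plant cells to disturbed mitochondria and to low oxygen. Mitochondria that are stressed signal to the nucleus, a process called retrograde signalling, in which NAC transcription factors that are anchored in the endoplasmic reticulum are released and bind a short promoter element, the mitochondrial dysfunction motif, in genes for alternative respiration and detoxification. When oxygen is scarce, group VII ERF transcription factors escape degradation and turn on genes of fermentation and glycolysis. The other kind belongs to the making of a flower primordium. LFY gives a meristem its floral identity, and auxin made by YUCCA enzymes marks where an organ founder forms. CUC and DRNL proteins mark boundaries and founder cells. Among the members, 2 stand in a mitochondrial retrograde list and 2 in a low oxygen list. A floral meristem and organ identity list holds 2, an organ founder and boundary list 3 and an auxin response list 2. Lists of glycolysis and of prohibitins, VDACs and ClpB chaperones, drawn up after the members were known, hold 4 each. Most members stand in none of these lists, and an excess over all genes was not tested.

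The mitochondrial dysfunction motif was searched on both strands as CTTGNNNNNCAAG or CTTGNNNNNCACG, from 250 bases before to 50 bases after the gene start of the RefSeq annotation of TAIR10.1. It was present in 9 of the 100 member promoters (9%), against 1.26% of 22856 promoters of all genes in the table. The 9 sites are shown because they are the sequence feature, among the 13 motifs searched, in which the members stood farthest from all promoters. This held clearly for the ratio of the shares and narrowly for their difference. Capitals mark the motif, with 8 bases on each side, 5′ to 3′ on the strand of the gene.
NAC044, chr3:229002-229030, plus strand: gtatctggCTTGGGGAGCAAGgttagcgg
ABCB11, chr1:523441-523469, plus strand: ccactctcCTTGCTTCTCAAGcaattatc
AT5G24640, chr5:8436264-8436292, plus strand: attaatttCTTGGTGGACAAGcatgtttg
AT2G41730, chr2:17409353-17409381, plus strand: attaatatCTTGCTGGACAAGcatttttg
AT1G24095, chr1:8523222-8523250, plus strand: tcgccggaCTTGGAGCTCAAGcaaagtac
AT2G35480, chr2:14910309-14910337, plus strand: aataaaatCTTGACGAACAAGtaaaatgg
AT5G58210, chr5:23552022-23552050, plus strand: acatttgtCTTGGCGAACAAGtccctttt
AT2G28815, chr2:12368081-12368109, minus strand: atcttcagCTTGAGCAGCAAGttctatag
AT3G20180, chr3:7044317-7044345, minus strand: tgggcgacCTTGTGTATCAAGttaaaaag

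All 9 sites end in CAAG, so that each reads as the motif on both strands. In 6 of them the motif lies wholly before the annotated start, in AT2G41730 it spans the start, and in AT1G24095 and AT3G20180 it lies just after it. The sites of AT5G24640 and AT2G41730 match at 26 of 29 bases. The 250 bases before the start of NAC044 and of ABCB11, the members with the highest and the third highest score, show where the site stands in the promoter.
NAC044, chr3:228825-229074, plus strand: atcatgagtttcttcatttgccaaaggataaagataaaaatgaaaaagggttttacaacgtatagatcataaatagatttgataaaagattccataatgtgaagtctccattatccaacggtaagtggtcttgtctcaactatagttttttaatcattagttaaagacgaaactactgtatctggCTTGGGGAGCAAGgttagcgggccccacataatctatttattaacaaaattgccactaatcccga
ABCB11, chr1:523286-523535, plus strand: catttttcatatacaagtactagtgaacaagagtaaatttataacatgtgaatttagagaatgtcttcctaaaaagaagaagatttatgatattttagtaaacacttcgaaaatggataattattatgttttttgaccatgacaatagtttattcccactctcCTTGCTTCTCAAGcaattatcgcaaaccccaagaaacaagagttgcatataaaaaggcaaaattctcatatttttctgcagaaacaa

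The motif starts 65 bases before the annotated start in NAC044 and 87 bases before it in ABCB11. A match describes the letters only, and binding was not measured. The other 12 motifs were closer to the background of all promoters. Among the 19645 promoters of tested genes, 1.125% held the mitochondrial dysfunction motif and 19.3% the site II element TGGGCC. Against these the gap in percentage points was wider for the site II element. The site II element TGGGCC was in 10% of member promoters and 17.61% of all, the G-box CACGTG in 13% and 8.35%, the W-box (TTGACC or TTGACT) in 36% and 32.2%, and the LEAFY core CCANTG in 25% and 26.04%. The auxin response element TGTCTC was in 14% of both and its variant TGTCGG in 7% and 5.51%. Shares were 24% and 23.7% for the as-1 core TGACG, 13% and 11.5% for the heat shock element GAANNTTC, 11% and 9.31% for the DRE (ACCGAC or GCCGAC), 2% and 2.92% for the evening element, 2% and 3.15% for the CArG box and 1% and 2.70% for the GCC-box.

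**Figure D1:**
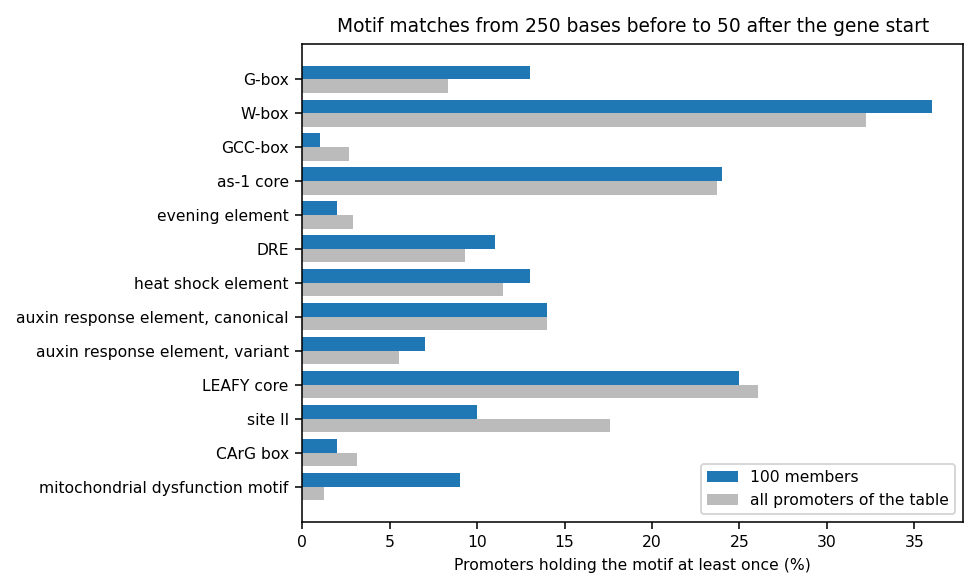
Share of promoters (horizontal axis, %) that hold each of 13 motifs at least once, for the 100 members (blue) and for all 22856 promoters of the table (grey). The mitochondrial dysfunction motif is at 9% against 1.26%, and the site II element is the only one of the other 12 with a gap of over 5 percentage points, at 10% against 17.61%.

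Day 2 had the highest mean in 65 members, day 3 in 22, day 1 in 12 and day 4 in 1 (AT1G78930, annotated as a mitochondrial transcription termination factor). The mean of days 2 and 3 was 1.35 to 60.2 times the day 0 mean (median 1.75) and 1.36 to 6.38 times the day 5 mean (median 1.57). All 4 day 1 samples lay above both the day 0 and the day 5 means in 80 members, against 20.6% of the 19747 tested genes. On day 4 this held for 83 members, against 11% of tested genes (2165 of 19747). The rule chose members with low means on days 0 and 5, so these shares are partly set by it and nothing is read from them. The median member stood on day 1 at 88.5% and on day 4 at 86.7% of its mean over days 2 and 3. In 75 members the day 3 mean was below the day 2 mean, and in 32 it was below those of days 2 and 4. Day 5 was above day 0 in 70 members.

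**Figure D2:**
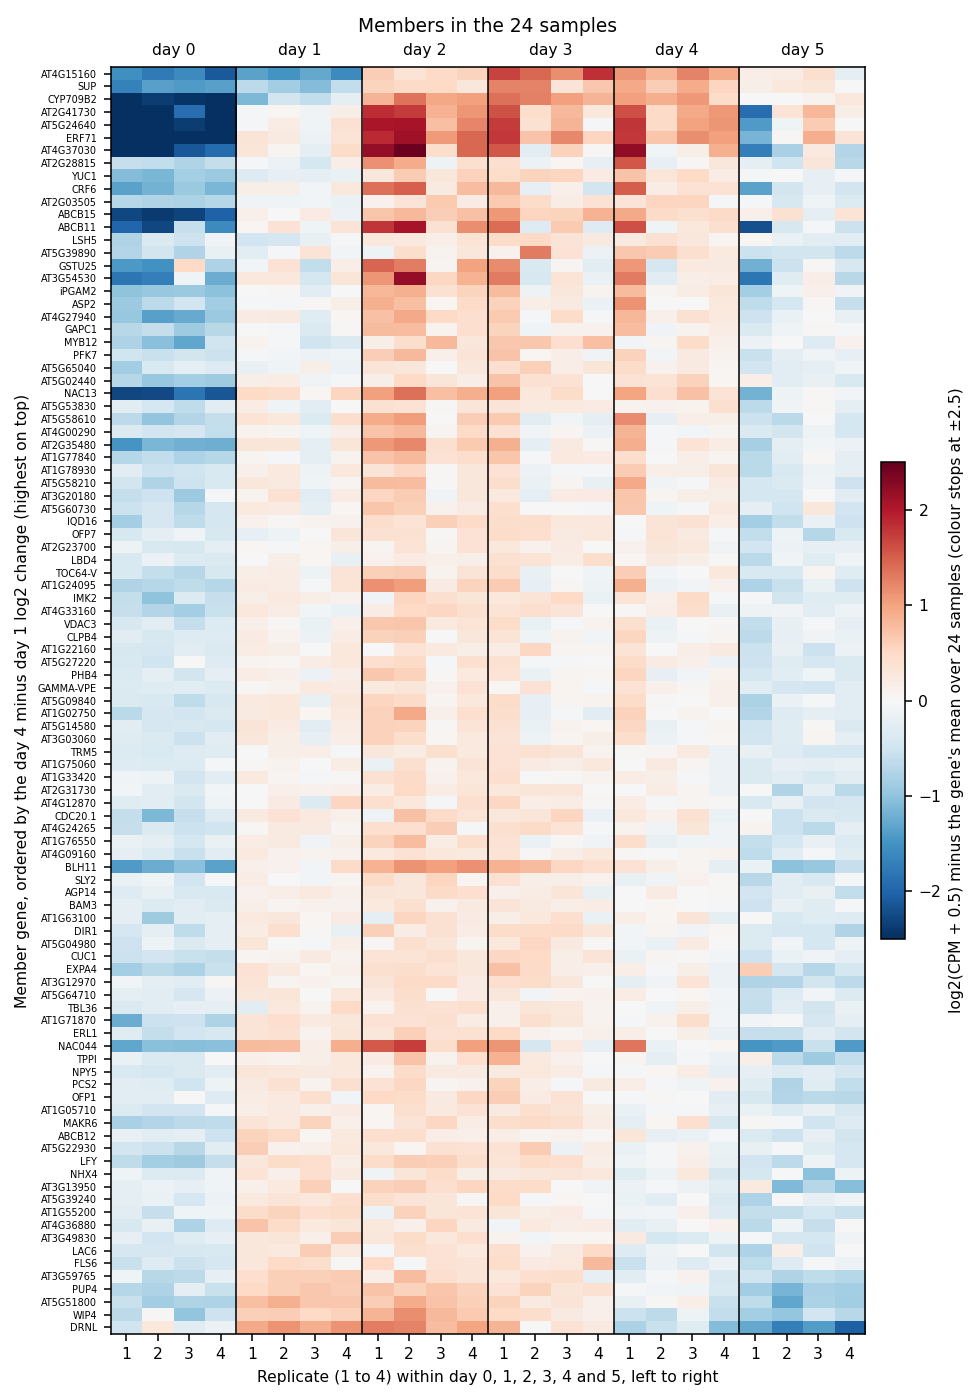
Heat map of 99 of the 100 members (rows) in the 24 samples (columns, replicates 1 to 4 within each day), as log2(CPM + 0.5) minus the mean of the gene over all samples, ordered by the change from day 1 to day 4. AT4G15160 and SUP at the top were still low on day 1, DRNL and WIP4 at the bottom were low again on day 4, and the upper part of the map differs between replicates of days 2, 3 and 4.

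The 2 highest scores were held by a NAC factor and an uncharacterized gene. NAC044 (AT3G01600, chromosome 3, 229075 to 231517), a NAC factor that arrests the cell cycle after DNA damage, had the highest score, 1.98. Replicates 1 to 4 held 17.5, 21.0, 20.8 and 21.1 CPM on day 0, 76.7, 75.8, 49.3 and 83.4 on day 1 and 129, 147, 59.8 and 89.6 on day 2. They held 95.5, 32.7, 52.6 and 38.4 CPM on day 3, 112, 39.4, 43.8 and 45.4 on day 4 and 15.5, 16.1, 29.6 and 16.3 on day 5. Every sample of days 2 and 3 was above every sample of days 0 and 5, and replicate 1 on day 4 was more than 2 times each of the other samples of that day. AT4G37030, an uncharacterized protein, came second with a score of 1.93. Its day 0 samples stood at 1.501, 1.41, 2.14 and 2.54 CPM, its day 1 samples at 13.6, 11.6, 9.17 and 15.3 and its day 2 samples at 52.0, 62.1, 15.2 and 30.7 (replicates 1 to 4). Day 3 gave 33.1, 9.01, 16.8 and 11.2 CPM, day 4 52.9, 10.5, 12.3 and 20.8 and day 5 3.02, 6.07, 13.1 and 6.43. Its highest samples were replicate 2 of day 2, replicate 1 of day 4 and replicate 1 of day 2, and day 3 overlapped with replicate 3 of day 5.

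NAC13 (AT1G32870, chromosome 1, 11911631 to 11913947) is a factor of mitochondrial retrograde signalling that binds the mitochondrial dysfunction motif. In replicates 1 to 4 the level was 21.5, 21.8, 29.7 and 23.8 CPM on day 0, 149, 143, 109 and 154 on day 1 and 217, 276, 179 and 200.4 on day 2. The later values were 217, 128, 146 and 106 CPM on day 3, 209.6, 141, 177 and 135 on day 4 and 46.3, 97.6, 108 and 102 on day 5. It was low in the 4 day 0 samples, replicate 1 of day 5 was the lowest of that day, and the day 3 and day 5 samples overlapped. CRF6 (AT3G61630, chromosome 3, 22804998 to 22806527), a cytokinin response factor that also acts in oxidative stress, had a score of 1.24. It measured 15.3, 17.1, 20.6 and 17.7 CPM in replicates 1 to 4 on day 0, 43.7, 43.4, 37.8 and 47.2 on day 1 and 104, 112, 46.1 and 67.5 on day 2. On day 3 it had 69.6, 34.4, 43.0 and 28.5 CPM, on day 4 114, 45.2, 50.8 and 51.1 and on day 5 15.3, 28.4, 33.9 and 28.1. As in NAC044, replicate 1 stood far above the other day 4 samples, and day 3 overlapped with day 5.

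ERF71 (AT2G47520, chromosome 2, 19502776 to 19503702) is a group VII ERF of the low oxygen response, and its mean over days 2 and 3 was 60.2 times its day 0 mean, the widest ratio among the members. Replicates 1 to 4 held 0.375, 0.520, 2.21 and 0.598 CPM on day 0, 25.6, 23.96, 18.3 and 26.2 on day 1 and 75.5, 89.99, 43.3 and 56.2 on day 2. They held 70.6, 33.7, 47.4 and 29.7 CPM on day 3, 70.4, 33.3, 46.4 and 42.4 on day 4 and 8.82, 20.9, 38.7 and 25.5 on day 5. The day 0 samples lay below all others, and day 3 overlapped with day 5. AT5G39890 (chromosome 5, 15974270 to 15976270) is annotated as a putative 2-aminoethanethiol dioxygenase and stands in the low oxygen list. Its day 0 samples stood at 4.62, 5.68, 4.54 and 6.91 CPM, its day 1 samples at 6.45, 7.69, 10.2 and 7.57 and its day 2 samples at 7.24, 11.02, 8.42 and 9.82 (replicates 1 to 4). Day 3 gave 8.55, 20.22, 10.3 and 7.17 CPM, day 4 12.98, 12.6, 10.6 and 9.57 and day 5 5.36, 5.63, 5.64 and 4.89. Replicate 2 of day 3 was nearly 2 times the next sample of that day, and days 2 and 3 did not overlap with days 0 and 5.

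Transporters and detoxifying enzymes were also among the members. ABCB11 (AT1G02520, chromosome 1, 523536 to 529069) encodes an ABC transporter of the B subfamily. In replicates 1 to 4 the level was 4.503, 3.56, 12.8 and 6.05 CPM on day 0, 20.06, 24.8, 17.9 and 24.5 on day 1 and 67.7, 81.6, 25.1 and 43.5 on day 2. The later values were 51.8, 15.2, 30.4 and 15.4 CPM on day 3, 60.2, 17.8, 23.1 and 25.7 on day 4 and 3.79, 14.4, 18.8 and 13.1 on day 5. Replicate 3 was the lowest on day 2 and replicate 1 the highest on days 3 and 4, and day 3 overlapped with day 5. Its neighbour ABCB12 is a near copy that can share reads, and had a flatter course, from 6.96 ± 0.732 CPM on day 0 to 10.7 ± 1.28 on day 2 and 6.55 ± 0.685 on day 5 (mean ± SD, n = 4). ABCB15 went from 1.21 ± 0.200 CPM to 13.3 ± 2.55 on day 3 and 8.61 ± 1.62 on day 5.

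GSTU25 (AT1G17180, chromosome 1, 5872024 to 5873124), a glutathione S-transferase of the tau class, was among the least abundant members. It measured 0.263, 0.223, 2.44 and 0.710 CPM in replicates 1 to 4 on day 0, 1.47, 2.14, 0.844 and 1.84 on day 1 and 5.15, 4.52, 1.68 and 3.66 on day 2. On day 3 it had 4.18, 1.08, 1.68 and 1.19 CPM, on day 4 3.87, 1.05, 1.95 and 1.91 and on day 5 0.401, 0.920, 1.60 and 1.06. Replicate 3 of day 0 was above replicate 3 of day 2, so the groups overlapped. CYP709B2 (AT2G46950, chromosome 2, 19289087 to 19291632), a cytochrome P450, was steadier. Replicates 1 to 4 held 0.563, 0.891, 0.825 and 0.785 CPM on day 0, 2.83, 4.81, 4.26 and 5.73 on day 1 and 12.6, 18.03, 13.7 and 14.2 on day 2. They held 18.4, 16.8, 14.3 and 12.5 CPM on day 3, 14.2, 13.1, 14.9 and 9.49 on day 4 and 6.67, 6.66, 7.17 and 8.25 on day 5. All day 2, 3 and 4 samples were above all samples of the other days, with no overlap.

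Among the other genes with the motif, AT5G24640 went from 0.833 ± 0.630 CPM on day 0 to 35.1 ± 14.6 on day 2 and 10.7 ± 5.60 on day 5. AT2G41730, annotated as a calcium-binding site protein, went from 2.09 ± 1.701 to 51.8 ± 16.7 and 20.6 ± 12.0 CPM. AT1G24095, annotated as a putative thiol-disulfide oxidoreductase, had 14.6 ± 0.535, 41.8 ± 12.2 and 17.0 ± 3.15 CPM on the same days. The day 0 spread was small for AT1G24095 and wide for the other two. AT2G35480 had 9.11 ± 0.908, 41.4 ± 10.4 and 18.24 ± 4.01 CPM, AT5G58210 had 21.95 ± 2.396, 45.1 ± 11.4 and 24.8 ± 3.42, AT2G28815 had 2.78 ± 0.177, 7.55 ± 2.94 and 3.83 ± 1.38, and AT3G20180, annotated as a copper transport protein, had 1.74 ± 0.579, 3.53 ± 0.845 and 2.05 ± 0.373.

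Mitochondrial proteins and enzymes of central carbon metabolism were present with smaller ratios and higher levels. GAPC1, the cytosolic glyceraldehyde-3-phosphate dehydrogenase of glycolysis, had 549 ± 44.6 CPM on day 0, 1318 ± 286 on day 2 and 837 ± 98.5 on day 5. iPGAM2, a phosphoglycerate mutase of the next steps of the pathway, had 116 ± 4.23, 366 ± 60.0 and 202 ± 52.6 CPM. The phosphofructokinase PFK7 had 56.1 ± 1.82, 113 ± 23.47 and 67.1 ± 8.83 CPM, and AT1G76550, annotated as a phosphofructokinase family protein, had 74.4 ± 6.46, 126 ± 21.7 and 67.9 ± 8.19 CPM. ASP2, an aspartate aminotransferase, had 81.4 ± 11.8, 200.4 ± 48.7 and 103 ± 23.2 CPM. In each of these 5 genes the spread on day 2 was wider than on day 0.

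VDAC3, a channel of the outer mitochondrial membrane, had 241 ± 21.4 CPM on day 0, 451 ± 71.0 on day 2 and 267 ± 42.3 on day 5. PHB4, a prohibitin of the inner membrane, had 69.6 ± 4.72, 116 ± 23.7 and 71.3 ± 7.22 CPM. CLPB4, a mitochondrial chaperone that resolves aggregates, had 37.4 ± 1.41, 61.5 ± 11.7 and 39.3 ± 6.45 CPM. TOC64-V, named after a chloroplast import receptor and found on the outer mitochondrial membrane, had 26.7 ± 2.95, 51.8 ± 8.69 and 32.7 ± 5.06 CPM. AT4G27940, annotated as a manganese tracking factor for mitochondrial SOD2, had 8.50 ± 1.32, 30.4 ± 5.17 and 16.4 ± 2.41 CPM.

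Of the 19 genes of the mitochondrial retrograde list, 2, NAC13 and GSTU25, are members. In the contrast of the mean of days 2 and 3 with the mean of days 0 and 5, which the rule used, 13 of the other 17 genes were called higher and the rest did not pass (edgeR, adjusted p under 0.05), against 9.52% of tested genes called higher and 12.5% lower. All 100 members were called higher there. The rule set this direction and favoured large ratios, so nothing is read from that count. The alternative oxidase AOX1A, the classic marker of retrograde signalling, had 10.3 ± 4.41 CPM on day 0, 259 ± 65.9 on day 2, 223 ± 55.7 on day 4 and 120.3 ± 48.3 on day 5. SOT12, a sulfotransferase, had 19.2 ± 7.14, 375 ± 138 and 209 ± 94.5 CPM on days 0, 2 and 5, and AT5G51440, a small heat shock protein, had 0.486 ± 0.249, 21.4 ± 4.98 and 17.5 ± 10.5. On day 5 the mean was 18.8% to 81.7% of the highest day mean in the 6 list genes plotted and 18.199% to 40.5% in 6 members, which the rule chose for a low day 5 mean, and the ranges overlap. Between days 1 and 4, which the rule did not use, 9 of the other 17 genes rose and the rest did not pass, against 11.4% and 8.26% of tested genes.

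**Figure D3:**
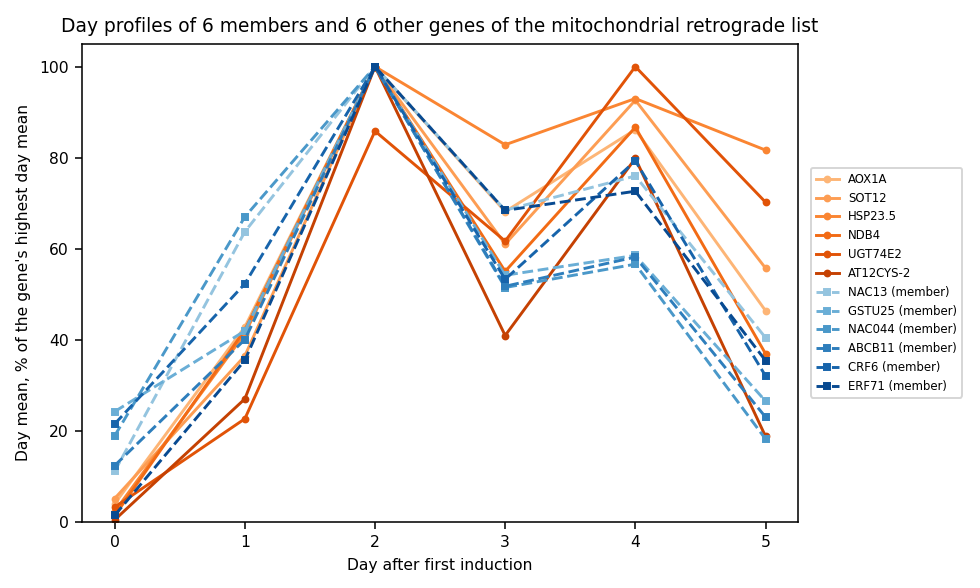
Day means as a percentage of the highest day mean of each gene (vertical axis) over the days after induction (horizontal axis), for 6 members (blue, dashed) and the 6 genes of the mitochondrial retrograde list that are not members and had the smallest adjusted p in the contrast of days 2 and 3 with days 0 and 5 (orange). UGT74E2 was highest on day 4 and the other 11 on day 2, and on day 5 the members, chosen for a low day 5 mean, lay at 18.199% to 40.5% and the other genes at 18.8% to 81.7%, with overlap.

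The same contrast was counted in other lists. It takes the mean of days 0 and 5, so a gene that was low on day 0 and stayed high can be called higher. In the detoxification list 20 of the 33 genes other than GSTU25 were called higher and the rest did not pass, among them the glucosyltransferases UGT73B2 and UGT73B1 and the cytochrome P450 CYP81D11. CYP81D11 had 0.365 ± 0.164 CPM on day 0, 4.32 ± 1.13 on day 3, 6.64 ± 0.787 on day 4 and 5.13 ± 0.443 on day 5. In the low oxygen list 6 of 16 others were called higher and the rest did not pass. They included LBD41 (160.4 ± 9.64 CPM on day 2 against 112 ± 8.20 on day 5), PCO1 and the pyruvate decarboxylase PDC1 (1.26 ± 0.436, 10.5 ± 5.37 and 6.26 ± 1.73 CPM on days 0, 2 and 5). A glycolysis list and a list of prohibitins, VDACs and ClpB chaperones were drawn up after the members were known and hold 4 members each. Of their other genes, 6 of 25 and 2 of 7 were called higher and the rest did not pass. Between days 1 and 4, 2 of the 16 others of the low oxygen list rose and 4 fell. In the detoxification list 19 of the 33 others rose and 1 fell.

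The spread between replicates was uneven across the members. In 15 of them replicate 1 of day 4 was at least 1.5 times each of the other 3 day 4 samples, against 1.09% of tested genes. These 15 were NAC044, AT4G37030, ABCB11, AT3G54530, AT5G24640, CRF6, ERF71, GSTU25, AT1G24095, AT5G58610, ASP2, AT4G00290, AT5G58210, AT2G28815 and AT3G20180, a group picked from the data after their values were seen. All 15 had their highest mean on day 2 and a dip on day 3. In all 15 replicate 1 was also the highest sample of day 3, against 22.8% of tested genes, and replicate 3 the lowest of day 2, against 21.4%. The other 85 members shared this in part, 51 of them for day 3 and 37 for day 2. Replicate 3 was the lowest of day 1 in 14 of the 15 and in 46 of the other 85, against 33.99% of tested genes. Of the 15, 7 held the mitochondrial dysfunction motif, and of the other 85 members 2 did. Their high day 4 value follows from how they were picked and also helps the dip on day 3. Over all 100 members the median coefficient of variation on day 4 was 16.9%, against 8.29% over all tested genes. The part of these single samples in the mid-course maximum was not tested beyond leaving them out.

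**Figure D4:**
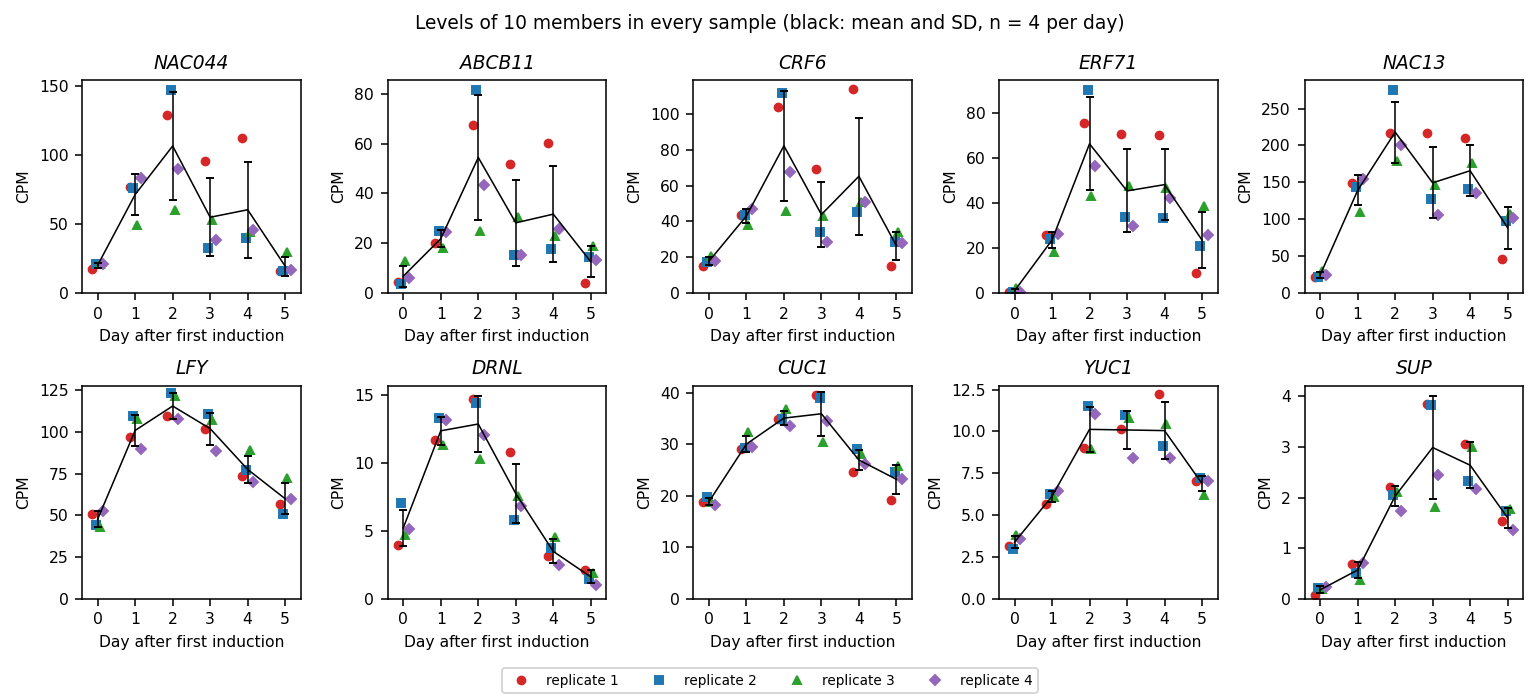
CPM (vertical axes) of 10 members in each of the 24 samples over the days after induction (horizontal axes), with the mean and SD of 4 replicates in black. In the upper row NAC044, ABCB11, CRF6, ERF71 and NAC13 scatter widely from day 2 to day 4 with replicate 1 highest on days 3 and 4, and in the lower row LFY, CUC1 and YUC1 keep closer to their means than DRNL and SUP do on day 3.

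Genes of the flower primordium differed among themselves in the day and the size of the maximum. LFY (AT5G61850, chromosome 5, 24844248 to 24846989) is the transcription factor that confers floral meristem identity. Its day 0 samples stood at 51.0, 44.4, 43.2 and 52.5 CPM, its day 1 samples at 97.0, 109, 108 and 89.99 and its day 2 samples at 109.7, 123, 122 and 108 (replicates 1 to 4). Day 3 gave 102, 111, 107 and 88.9 CPM, day 4 73.8, 77.03, 89.4 and 70.3 and day 5 56.9, 50.7, 72.7 and 59.8. The day 1, 2 and 3 samples all lay above the day 0 and day 5 samples, and day 4 was lower and overlapped with replicate 3 of day 5. DRNL (AT1G24590, chromosome 1, 8714365 to 8715378), an AP2-type factor expressed in organ founder cells, came earlier. In replicates 1 to 4 the level was 3.98, 7.09, 4.69 and 5.16 CPM on day 0, 11.7, 13.3, 11.3 and 13.2 on day 1 and 14.7, 14.5, 10.3 and 12.0 on day 2. The later values were 10.8, 5.81, 7.58 and 6.84 CPM on day 3, 3.14, 3.77, 4.57 and 2.49 on day 4 and 2.11, 1.44, 1.89 and 1.02 on day 5. The day 1 and day 2 samples overlapped, all day 5 samples were below all day 0 samples, and the lowest day 3 samples overlapped with replicate 2 of day 0.

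CUC1 (AT3G15170, chromosome 3, 5109782 to 5111608), a NAC factor that keeps organ boundaries free of growth, changed within a narrow range. It measured 18.8, 19.7, 18.7 and 18.16 CPM in replicates 1 to 4 on day 0, 29.1, 29.2, 32.4 and 29.4 on day 1 and 34.97, 34.99, 36.8 and 33.6 on day 2. On day 3 it had 39.6, 39.1, 30.5 and 34.6 CPM, on day 4 24.6, 28.99, 28.1 and 26.1 and on day 5 19.2, 24.5, 25.8 and 23.2. The samples of days 2 and 3 did not overlap with those of days 0 and 5. OFP1 (AT5G01840, chromosome 5, 324428 to 325678), a transcriptional repressor of the ovate family, was lowest on day 5. Replicates 1 to 4 held 5.14, 5.12, 6.30 and 4.90 CPM on day 0, 7.20, 7.58, 8.48 and 5.96 on day 1 and 9.03, 8.82, 7.43 and 9.21 on day 2. They held 9.85, 7.37, 8.26 and 6.24 CPM on day 3, 6.20, 6.40, 6.26 and 5.17 on day 4 and 4.63, 3.61, 3.75 and 3.72 on day 5. Replicate 4 of day 3 lay below replicate 3 of day 0, so these days overlapped. SUP (AT3G23130, chromosome 3, 8242256 to 8243372), a zinc finger protein that sets the border between stamens and carpels, came later than the others. Its day 0 samples stood at 0.0751, 0.223, 0.188 and 0.224 CPM, its day 1 samples at 0.681, 0.518, 0.367 and 0.712 and its day 2 samples at 2.202, 2.06, 2.11 and 1.74 (replicates 1 to 4). Day 3 gave 3.84, 3.84, 1.82 and 2.45 CPM, day 4 3.06, 2.33, 3.00 and 2.16 and day 5 1.53, 1.73, 1.78 and 1.35. It was scarce on day 0, and lower on day 1 than in any later sample, and replicate 4 of day 2 overlapped with day 5.

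Of the other 30 genes tested in the floral meristem and organ identity list, 16 were called higher and 4 lower in the same contrast of means. A call there does not mean that the level was above that of day 5. AP3, a petal and stamen identity gene, and RBE and JAG, 2 zinc finger genes of petal and organ growth, were among the higher ones. AP3 had 8.57 ± 2.31 CPM on day 0, 174 ± 22.2 on day 3 and 174 ± 5.48 on day 5, so its level did not come down again. RBE had 0.0561 ± 0.0215, 3.26 ± 0.180 and 2.202 ± 0.380 CPM. In the organ founder and boundary list 11 of the 26 others were called higher and 4 lower. CUC2, a close relative of CUC1, had 25.3 ± 2.13, 34.2 ± 1.54 and 19.0 ± 1.45 CPM on days 0, 2 and 5, and ANT, a promoter of organ growth, had 202 ± 23.1, 328 ± 12.5 and 267 ± 26.9. Between days 1 and 4, 20 of those 26 fell and 3 rose. In the floral meristem and organ identity list the direction was the other, as 19 of the 30 others rose and 5 fell. Of all tested genes 11.4% rose and 8.26% fell.

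Auxin genes were also among the members. YUC1 (AT4G32540, chromosome 4, 15700829 to 15703000), an auxin synthesis enzyme, stayed level from day 2 to day 4. In replicates 1 to 4 the level was 3.15, 3.01, 3.79 and 3.59 CPM on day 0, 5.70, 6.29, 6.09 and 6.44 on day 1 and 8.996, 11.5, 8.97 and 11.02 on day 2. The later values were 10.2, 10.99, 10.8 and 8.44 CPM on day 3, 12.2, 9.15, 10.4 and 8.39 on day 4 and 7.07, 7.21, 6.22 and 7.05 on day 5. No sample of days 2, 3 and 4 fell to the level of any sample of days 0, 1 and 5. NPY5, which acts in organ formation directed by auxin, had 104.9 ± 5.52 CPM on day 0, 162 ± 3.82 on day 1, 161 ± 17.9 on day 2 and 109 ± 6.99 on day 5. Among the other 22 tested genes of the auxin response list, 10 were called higher and 3 lower. MP, an auxin response factor needed for flower formation, had 493 ± 36.8 CPM on day 0, 622 ± 44.3 on day 2 and 474 ± 36.3 on day 5, GH3.2 rose between days 1 and 4 by 1.87 on the log2 scale (SE 0.20, edgeR adjusted p = 2.66e-07), and the influx carrier LAX1 was called lower.

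Further regulators and transporters with high scores fall in neither kind. BLH11 (AT1G75430, chromosome 1, 28307893 to 28309610), a BEL1-like homeodomain protein, had a score of 1.5. It measured 0.751, 0.928, 1.13 and 0.822 CPM in replicates 1 to 4 on day 0, 3.19, 3.14, 2.72 and 4.16 on day 1 and 5.67, 6.83, 6.38 and 6.92 on day 2. On day 3 it had 5.60, 5.33, 4.32 and 3.98 CPM, on day 4 3.80, 3.2, 3.00 and 2.38 and on day 5 2.51, 1.14, 1.24 and 1.75. Its samples of days 2 and 3 lay above all others, with the exception of replicate 4 of day 1, which was above replicate 4 of day 3. WIP4 (AT3G20880, chromosome 3, 7313538 to 7315883), a zinc finger factor known from root meristem initiation, came down by day 4. Replicates 1 to 4 held 0.976, 1.89, 0.675 and 1.12 CPM on day 0, 3.01, 3.07, 2.79 and 2.96 on day 1 and 3.70, 4.73, 3.61 and 3.19 on day 2. They held 2.80, 2.64, 2.22 and 2.04 CPM on day 3, 1.11, 0.979, 1.65 and 1.03 on day 4 and 0.802, 0.699, 1.16 and 0.949 on day 5. Days 1 to 3 did not overlap with days 0, 4 and 5. PUP4 (AT1G30840, chromosome 1, 10974383 to 10976298), a member of the purine permease family, was high on days 1 to 3. Its day 0 samples stood at 8.89, 8.54, 12.8 and 10.1 CPM, its day 1 samples at 21.5, 22.7, 24.1 and 23.1 and its day 2 samples at 25.0, 22.62, 24.5 and 22.5 (replicates 1 to 4). Day 3 gave 19.5, 22.3, 18.6 and 19.7 CPM, day 4 14.6, 14.3, 14.1 and 11.4 and day 5 7.94, 6.40, 8.30 and 8.03. These days did not overlap with days 0, 4 and 5, and replicate 4 was the lowest of day 4.

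Receptor kinases were represented by ERL1, which acts with ERECTA in organ growth (119 ± 10.01 CPM on day 0, 215 ± 21.2 on day 2, 117 ± 12.2 on day 5), by IMK2 (158 ± 28.9, 299 ± 53.0 and 200.5 ± 23.2) and by BAM3 (99.3 ± 4.14, 146 ± 12.7 and 103 ± 13.7). AT4G33270, a CDC20 activator of the anaphase-promoting complex, had 156 ± 33.7, 316 ± 75.8 and 194 ± 32.0 CPM, and can share reads with its near copy. It was the only member from the mitotic list, in which 8 of the 21 others were called higher and the rest did not pass. EXPA4, a cell wall expansin, had 81.6 ± 7.36, 172 ± 8.33 and 121 ± 56.6 CPM, with a wide spread on day 5. MYB12, a regulator of flavonol synthesis, was highest on day 3 at 17.7 ± 1.71 CPM, against 5.91 ± 1.56 on day 0 and 10.6 ± 1.45 on day 5.

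The comparison of day 4 with day 1 asked whether a member was higher in the later or the earlier flank of its maximum, in samples that played no part in the choice. Of the 100 members 8 rose, against 11.4% of tested genes, and 15 fell, against 8.26% (edgeR quasi-likelihood test, adjusted p under 0.05). The other 77 did not pass in either direction. The median log2 change was 0.05 over the members and -0.01 over all tested genes. The counts were thus near the background for rises, and somewhat above it for falls. The falls include members with their highest mean on day 1.

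The rises were led by AT4G15160, annotated as a lipid-transfer protein of the seed storage type. It measured 0.716, 0.592, 0.771 and 0.525 CPM in replicates 1 to 4 on day 1 and 6.16, 4.97, 6.75 and 5.39 CPM on day 4, a log2 change of 3.19 (SE 0.22, adjusted p = 5.68e-10). SUP followed at 2.25 (SE 0.26, adjusted p = 8.32e-07) and CYP709B2 at 1.59 (SE 0.17, adjusted p = 5.16e-07). Day 4 lay above day 1 in all 4 samples of these 3 genes. ERF71 rose by 1.08 (SE 0.36, adjusted p = 0.0375), a call that was lost under 9 of 17 alternatives, with adjusted p of up to 0.138, including the replicate block and leaving out replicate 1 of day 4. YUC1 rose by 0.76 (SE 0.11, adjusted p = 3.11e-05). AT2G03505, annotated as a carbohydrate-binding X8 domain protein, ABCB15 and LSH5 rose by 0.65, 0.61 and 0.57.

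The falls were led by DRNL, which fell by 1.78 (SE 0.22, adjusted p = 2.75e-06), and WIP4, which fell by 1.27 (SE 0.24, adjusted p = 0.000394). AT5G51800, annotated as a protein kinase, fell by 0.85 (SE 0.14, adjusted p = 9.57e-05) and PUP4 by 0.71 (SE 0.11, adjusted p = 3.28e-05). AT3G59765, a non-coding RNA gene, FLS6 and the laccase LAC6 fell by 0.69, 0.61 and 0.57. The call was lost under 2 of 17 alternatives for FLS6 and under 4 of 17 for LAC6. In the floral kind LFY fell by 0.34 (SE 0.09, adjusted p = 0.0131) and NPY5 by 0.21 (SE 0.07, adjusted p = 0.0425). The LFY call was lost under 3 of 17 alternatives, all of which left out a single library. The NPY5 call was lost under 10 of 17, among them no filter, batch 1 alone and the compared days alone. The highest adjusted p was 0.0568 for LFY, without replicate 2 of day 1, and 0.178 for NPY5, without replicate 4 of day 4. Of the falls named here, AT5G51800, AT3G59765, LAC6 and NPY5 had their highest mean on day 1. DRNL, WIP4, PUP4 and LFY had it on day 2 and FLS6 on day 3. CUC1 and OFP1 had values of -0.11 (SE 0.09) and -0.24 (SE 0.13) and were not called. The regulators NAC044, NAC13 and CRF6 were not called either, with values of -0.20 (SE 0.34), 0.30 (SE 0.22) and 0.65 (SE 0.31), nor were the transporter ABCB11 and the transferase GSTU25, with 0.59 (SE 0.47) and 0.53 (SE 0.58). Their standard errors were 2 or more times those of LFY and CUC1.

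**Figure D5:**
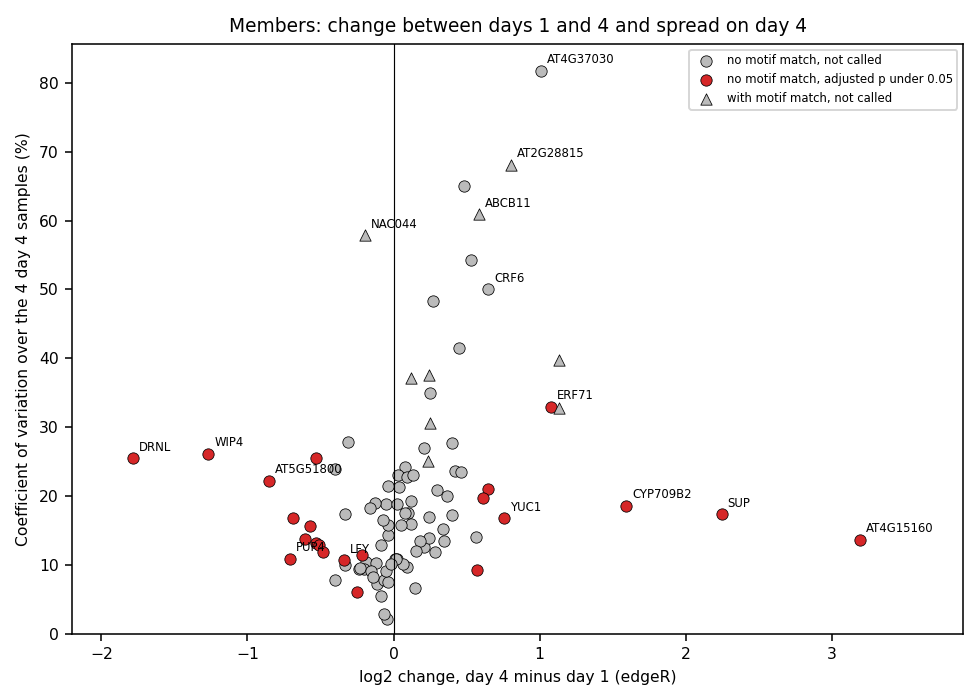
Log2 change from day 1 to day 4 (horizontal axis, edgeR) against the coefficient of variation of the 4 day 4 samples (vertical axis, %) for 99 of the 100 members, with called members in red and the 9 members with the mitochondrial dysfunction motif as triangles. The called members lie below 33%, and the 9 motif members, from 25.1% to 68.0%, are not called.

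Between days 2 and 3 the rule made no distinction, although it used the samples of both. The calls are therefore given as a description. By edgeR AT4G15160 alone was called higher on day 3 (1 of 100 members, against 0.694% of tested genes). It had 4.22, 3.43, 3.79 and 4.06 CPM in replicates 1 to 4 on day 2 and 9.40, 7.82, 6.40 and 10.4 CPM on day 3, a fitted log2 difference of 1.14. The groups did not overlap. By edgeR 0 members were called lower, against 0.177% of tested genes, while 22 members were lower at an unadjusted p under 0.05 and DESeq2 called 1, DRNL. The median log2 change was -0.15 over the members and 0.00 over all tested genes. NAC044, CRF6 and ABCB11 had values of -0.96 (SE 0.34), -0.91 (SE 0.31) and -0.95 (SE 0.47), which did not pass.

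The remaining members were of many kinds. The 20 highest scores also included AT3G54530 at 1.44, AT5G51800 at 1.27 and IQD16, a calmodulin-binding IQ-domain protein, at 0.93. AT3G54530 was scarce, with 4.19 ± 2.66 CPM on day 2 and 1 count in replicate 1 of day 0 and of day 5. The threshold fell in a continuous range. Members just inside it were AT2G31730 at 0.45 and AT3G49830, AT2G23700 and AT5G64710 at 0.44, and the 5 genes just outside were AT5G15070, CRY3, CYCD3;1, PGL2 and ZFN2, all at 0.43. In TAIR10.1, 9 members overlap a counted gene on the opposite strand (among them IQD16, DIR1, ERL1 and LAC6) and TOC64-V overlaps one on its own strand. A near copy with at least 90% identity over 200 bases was found for 5 members, ABCB11, ABCB12, AT4G33270, VDAC3 and AT4G00290. Counts of these genes can include reads of the partner. In bulk tissue, fewer cells of a type and less RNA per cell cannot be told apart for any of these levels.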

How the data were processed

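Polyadenylated RNA of 24 inflorescence samples was sequenced in 2 batches, 1 run each, 48 runs in all. The authors deposited 1 table of expected counts per gene, as whole numbers with 1 column per run. Per the submitters' processing notes, FastQC, Trim Galore, Salmon 0.12.0, DESeq2 and the TAIR10 build were used. No source names a strand setting. The 2 runs of a sample were summed here. Samples held 26.56 to 27.98 M counts, and precision below about 1 CPM is limited by counting.

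Members and lists were chosen with earlier results of these data known. All 24 samples entered 1 fit (edgeR 4.0.16 quasi-likelihood test, R 4.3.3, TMM, a term for each day, genes with a minimum count of 10 and total of 15), with Benjamini-Hochberg adjustment over 19747 genes. The contrasts were day 4 against day 1, day 3 against day 2, and the mean of days 2 and 3 against the mean of days 0 and 5. A gene was called at an adjusted p under 0.05. Replicates are biological per the labels. On simulated data with 200 changed genes, day 4 against day 1 recovered 70% of 1.5-fold and 85% of 2-fold changes, with 4.32% false among the calls. For day 3 against day 2 these were 71%, 84% and 3.13%. The changed genes were drawn at random from the tested genes, and genes varied independently within a simulated sample. The members varied more, with a median coefficient of variation on day 4 of 16.9% against 8.29% over tested genes. These recovery shares therefore need not hold for the members.

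Genes were named by rule: the 20 highest scores, those next to the threshold on each side, members of 36 lists, the largest called changes, and up to 3 other genes of lists with at least 2 members. Other names (ERL1, IMK2, BAM3, AT4G27940, the detoxification genes and the 2 added lists) were chosen after their values were seen. Promoters came from RefSeq TAIR10.1, and near copies from blastn 2.17.0. Alternatives were DESeq2 1.42.0, other scalings, filters, single batches, a replicate block, the compared days alone, leaving out each replicate, and longer promoter windows. A single member is counted in the totals, left out of the plots and not reported here by name.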

Additional observations from a re-analysis of the deposited data

Results flagged for a closer look

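In 18 members each day's 4 replicates were searched for a sample far from the rest, by Dixon's criterion. It picked out 11 of 108 groups, where chance gives about 1 in 20. The 18 members were measured in the same 24 samples, so the groups are not independent and no excess is read from this count. NAC044 had 3, with replicate 1 lowest on day 0 at 17.5 CPM, replicate 1 highest on day 4 at 112 CPM and replicate 3 highest on day 5 at 29.6 CPM. CRF6 had replicate 1 highest on day 4 at 114 CPM, and ERF71 had replicate 3 highest on day 0 at 2.21 CPM. NAC13 had replicate 1 lowest on day 5 at 46.3 CPM, the sample that also stood apart on the third principal component. PUP4 had replicate 4 lowest on day 4 at 11.4 CPM. OFP1 had replicate 4 lowest on day 4 at 5.17 CPM and replicate 1 highest on day 5 at 4.63 CPM. YUC1 had replicate 3 lowest on day 5 at 6.22 CPM, and CUC1 had replicate 3 highest on day 1 at 32.4 CPM. The part of these samples in the members' course was not tested beyond leaving each out.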

How the results depend on the processing

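The rule returned 74 to 97 of the 100 members when 1 replicate of days 0, 2, 3 or 5 was left out, and 51 were returned every time. Between days 1 and 4, members that rose numbered 7 to 11 and members that fell 10 to 16 over the leave-one-out fits; 14 rose when the compared days were fitted alone. Between days 2 and 3, 1 member rose in every leave-one-out fit and 0 to 2 fell, with 2 without replicate 1 of day 3 and 1 under DESeq2. With the replicate block 8 members rose and 16 fell between days 1 and 4, and 1 rose and 0 fell between days 2 and 3. Deviations of samples with the same number correlated at -0.16 to 0.07 for days 1 and 4 and at 0.08 to 0.52 for days 2 and 3, where 5 of 8 samples correlated best with their own number, a hint from the data, so not every pair passed 0.1 and the block was not used in the main fit. Among values of named members under all alternatives, 808 of 862 kept their side of the threshold, 50 were no longer called and 4 became called. A change of sign was counted only where the main or the alternative value was called, and 0 were found. Some uncalled values did change sign. AT5G39890 had a log2 change from day 2 to day 3 of 0.34 in the main fit and -0.07 without day 3 replicate 2. The motif was in 15 members with 1000 bases before the start (4.26% of all promoters) and in 12 with 500 (2.11%), windows chosen after seeing the data. Over all genes, day 3 against day 2 gave 137 higher and 35 lower, against 248 and 75 by DESeq2, 75 and 15 in batch 1, and 17 and 4 with those days alone. Leaving out 1 library gave 31 to 115 higher and 9 to 38 lower. The counts were 31 and 9 without day 2 replicate 2, 48 and 12 without day 3 replicate 4, and 62 and 16 without day 2 replicate 3. They were 73 and 19 without day 2 replicate 1, 79 and 11 without day 3 replicate 2, and 90 and 20 without day 2 replicate 4. The background shares of that comparison thus changed with the libraries used. Each such fit also had 1 replicate less, and the part of the single library and of the smaller number cannot be told apart. The cause was not tested.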
